A study of Mus musculus with 28 samples.

Results

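The Myc and Pvt1 locus was followed through the chromatin marks of mouse lung tumours. It was taken as chromosome 15 from 61780000 to 62100000 on mm9, the build given in the submitters' processing notes, and it holds Myc at 61816900 to 61822000 on the plus strand. In the RefSeq gene table (assembly GRCm38.p6, used for gene order only), Pvt1 is the next gene downstream of Myc. Every peak that shared at least 1 bp with this interval was a member, which gave 272 of the 950445 peaks in the 24 peak lists.

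Myc encodes a transcription factor that pairs with Max and drives growth and cell-cycle genes, and it is a common target of oncogenic signalling, including signalling through Ras. Pvt1 is a gene for a long non-coding RNA that lies beside Myc and is often amplified with it in cancer. The DNA around Pvt1 is known to hold enhancers that act on Myc in several tissues. H3K4me3 marks active promoters, H3K4me1 marks enhancers, H3K27ac marks active promoters and enhancers, and H3K79me2 lies along transcribed genes. H3K27me3 (Polycomb) and H3K9me3 (heterochromatin) are marks of repressed chromatin.

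Chromatin immunoprecipitation with sequencing (ChIP-seq) had been done on tumours of mice carrying K-RasLSL-G12D, a Cre-activated mutant K-Ras allele, and of mice carrying K-RasLSL-G12D with Mll4fl/fl, a floxed allele of an H3K4 methyltransferase gene. Both received Ad-CMV-Cre, an adenovirus that delivers Cre under a promoter active in many cell types, so recombination was not restricted by cell type, and the tissue profiled was bulk tumour. Each of the 6 marks had 4 libraries, numbered as replicates 1 to 4 in the labels. The labels give no tumour type for single libraries. The names of the deposited lists hold MLL for replicates 1 and 2 of every mark and RAS for replicates 3 and 4. These words are used below as list names only, values are given per library, and no test between them was made, since 2 libraries against 2 cannot give a two-sided exact p below 0.333. Whether a library came from 1 animal or pooled tumours, and whether floxed alleles were fully recombined, was not given in the sources used here.

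The lists hold no read counts, so sequencing depth is unknown and no counting interval could be given. Lists differed widely in their usual peak width, and this touches every width and covered length below. The H3K27ac lists had a median peak width of 233 and 216 bp in replicates 1 and 2 against 2051 and 1702 bp in replicates 3 and 4. Some libraries stood apart before any result. H3K4me3 replicate 1 covered 0.120% of the genome spanned by peaks, against 1.02% to 1.25% in the other H3K4me3 libraries. H3K27ac replicate 2 had 82.2% of its bases inside H3K79me2 peaks of its own replicate number. H3K9me3 replicate 4 had 31.0% of its bases inside H3K4me1 peaks, against at most 0.474% in the other H3K9me3 libraries. Lung marker genes were not examined, as no mm9 gene annotation was used.

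Peaks of the active marks lay at Myc and in stretches downstream of it, and the repressive marks had 2 peaks in all. The 272 peaks were made up of 99 of H3K4me1, 85 of H3K79me2, 74 of H3K27ac, 12 of H3K4me3 and 2 of H3K9me3, with no H3K27me3 peak in any of 4 libraries. Every peak lay at or downstream of the Myc promoter. The first peak began 1.92 kb before the start of Myc and the last ended 276.95 kb after it. Upstream of that first peak, no library had a peak until 79.9 kb before Myc, where H3K4me1 replicate 4 had one with a score of 59.46. The other 23 libraries were free of peaks to at least 140.2 kb before Myc. An interval as long as the upstream part of the locus (35.9 kb) held no peak in any of the 24 libraries in 49.2% of tiles across the genome, so an empty stretch of this length was common. The upstream part held only the edges of promoter peaks. H3K27ac covered 0%, 0%, 1.72% and 1.10% of it in replicates 1 to 4 and H3K4me1 none in any library, a difference of 0.705 percentage points that did not pass the exact permutation test described below (two-sided p 0.429, adjusted 0.429, higher in 8 of 16 pairs of libraries).

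**Figure D1:**
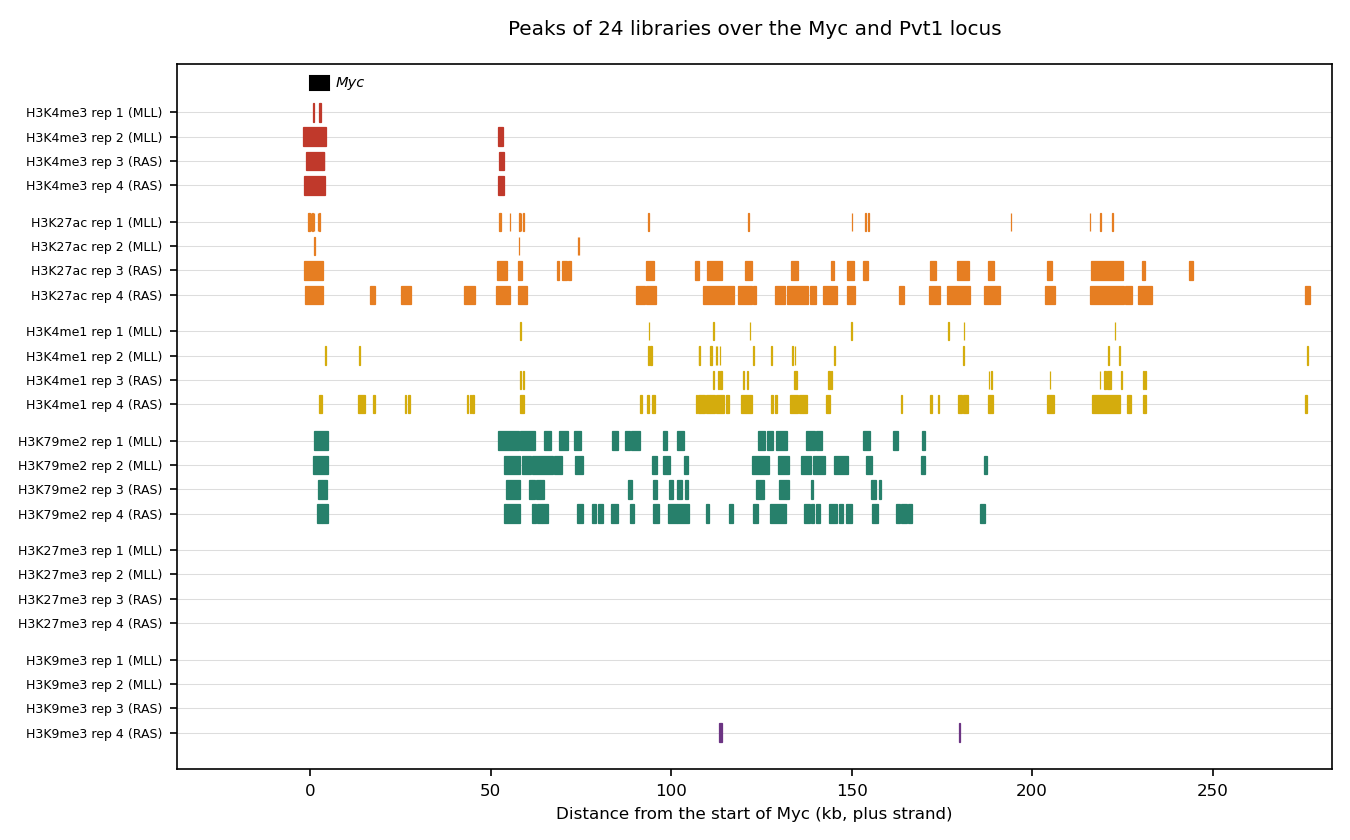
Peaks of the 24 libraries across the locus, one line per library, with the distance from the start of Myc in kb on the x axis and the word in each list's name in brackets. H3K4me3 lies at Myc and near +52 kb, H3K27ac and H3K4me1 reach +277 kb, H3K79me2 stops at +187.61 kb, and the H3K27me3 lines are empty.

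The Myc promoter carried H3K4me3 in all 4 libraries. The promoter window was set at 1 kb to each side of the start of Myc (61815900 to 61817899). H3K4me3 peaks covered 13.6%, 100%, 100% and 100% of it in replicates 1 to 4 (78.4% ± 43.2, SD, n = 4). Replicate 1 was low and the other 3 libraries were covered from end to end. Across the genome, H3K4me3 was called in at least 3 of 4 libraries in 1.90% of 2 kb tiles.

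The H3K4me3 peak at Myc was wide in 3 of 4 libraries. It was 6304 bp in replicate 2, 4392 bp in replicate 3 and 5936 bp in replicate 4, which placed it at the 99.1, 99.5 and 98.8 percentile of width within those lists. Its score in the authors' lists was 3100 in all 3, a value shared by 280, 3880 and 498 peaks of those lists, and 45, 241 and 61 peaks scored above it. In replicate 1 the widest of 3 small peaks at Myc was 315 bp with a score of 80.68. Bases covered in at least 2 of 4 libraries, with gaps up to 1 kb closed, formed 1 region here (61815152 to 61821087, 5936 bp), called in 4 of 4 libraries as were 34.3% of such regions in the genome. Of the 14426 H3K4me3 regions built in the same way across the genome, 232 were longer, and the median was 1935 bp. The region ran from 1.75 kb before the start of Myc to 4.19 kb after it, most of the length of the gene.

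H3K27ac was found at the Myc promoter in 3 of 4 libraries. It covered 53.05%, 0%, 100% and 100% of the promoter window in replicates 1 to 4 (63.3% ± 47.6, SD, n = 4). Of all 2 kb tiles of the genome, promoter or not, 3.15% had H3K27ac in at least 3 libraries. In the RAS-named lists 1 peak spanned the window, of 5117 bp with a score of 1608.91 in replicate 3 and of 4778 bp with a score of 1569.58 in replicate 4. In the MLL-named lists, replicate 1 had 5 short peaks there, the strongest of 346 bp with a score of 144.86, and replicate 2 had none in the window but 1 of 133 bp just after it, with a score of 50.64. The whole lists differ in the same direction, with median scores of 71.32 and 71.21 in replicates 1 and 2 and of 230.76 and 192.70 in replicates 3 and 4, so raw scores are not compared between lists. Within its own list, the best promoter peak stood at the 82.7 percentile of score in replicate 1, the 91.5 in replicate 3 and the 92.5 in replicate 4. The peak of replicate 2 stood at the 3.45 percentile.

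H3K4me1 was not called in the Myc promoter window in any of 4 libraries. The nearest H3K4me1 peaks inside the gene were 1 in replicate 4 at 2.48 to 3.10 kb (score 69.00) and 1 in replicate 2 at 4.19 to 4.40 kb (score 61.80). Across the genome, 91.5% of 2 kb tiles had no H3K4me1 in any library. As 97% of tiles also had no H3K4me3, that share does not tell what is usual at promoters.

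H3K79me2 covered the body of Myc in all 4 libraries and began inside the gene. From 1 kb after the start to the end of Myc (61817900 to 61822000), it covered 91.9%, 96.3%, 56.5% and 71.6% in replicates 1 to 4 (79.1% ± 18.5, SD, n = 4). At least 3 of 4 libraries had H3K79me2 in 6.25% of 2 kb tiles. The mark began 0.96 and 0.76 kb after the start in the MLL-named replicates 1 and 2, and 2.15 and 1.81 kb after it in the RAS-named replicates 3 and 4. The covered shares were higher in both MLL-named lists than in both RAS-named lists. Divided by the share of the genome that each list covers, the values were 17.2, 16.3, 10.5 and 16.5, lowest in replicate 3. At 91.9% and 96.3%, replicates 1 and 2 were near full cover, so their ratios could be little higher. Whether the list names separate after this division therefore cannot be read. Median H3K79me2 peak width over the whole lists was 2596 and 2773 bp in replicates 1 and 2 against 1669 and 1100 bp in replicates 3 and 4. Its part in the values at Myc was not tested. The best H3K79me2 peak in the gene scored 163.60, 55.82, 93.82 and 162.76 in replicates 1 to 4, at the 51.6, 5.88, 30.1 and 53.5 percentile of its own list.

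**Figure D2:**
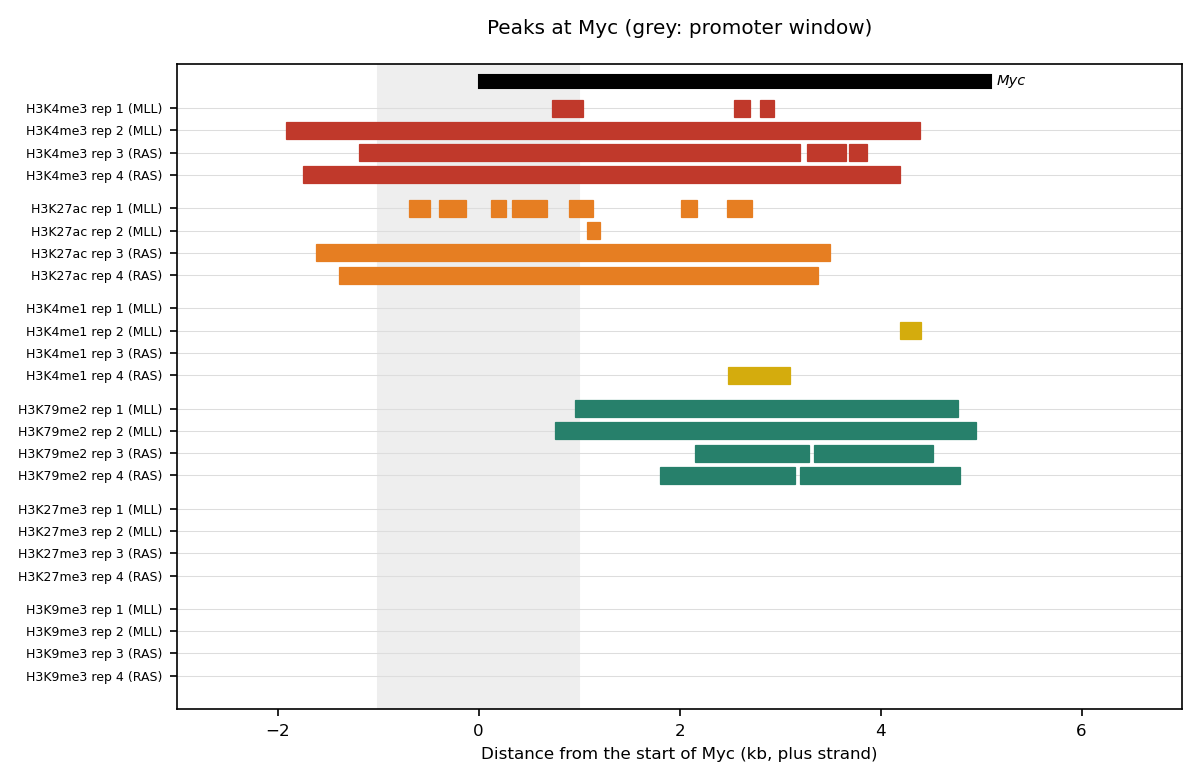
Peaks at Myc by library, with the distance from the start of Myc in kb on the x axis, the gene as a black bar and the promoter window of 1 kb to each side in grey. H3K4me3 spans the start in replicates 2, 3 and 4 and H3K27ac in replicates 3 and 4, while H3K79me2 begins 0.76 to 2.15 kb inside the gene and H3K4me1 is missing from the window.

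Covered shares of pairs of marks were compared by exact two-sided permutation of 4 libraries against 4, adjusted over 6 tests by the Benjamini-Hochberg method. In 4 of the 6, the second mark was H3K27me3, which was at 0 in every library. Any mark with a peak in all 4 libraries then gives the smallest p the design allows (exact permutation p 0.0286, adjusted 0.0343), so these tests restate that the first mark was called in 4 of 4 libraries and support nothing further. The difference was 78.4 percentage points for H3K4me3 in the promoter window and 79.1 for H3K79me2 in the gene body. With equal numbers of best-scored peaks from every list, the first stayed at 78.4 and the second was 0, and with peaks of score 100 or more they were 75.0 and 40.9. Without H3K4me3 replicate 1, the first was 100 points.

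The absence of H3K27me3 extended over the whole 320 kb. All 4 libraries were at 0, so at the unknown depth of these lists no level below the calling threshold can be told. Of tiles as long as the locus, 48.4% held no H3K27me3 in any library. Among the 3071 tiles that carried H3K4me3 in any library and H3K27ac and H3K79me2 in 4 of 4, as the locus did, the share was 19.4%. H3K9me3 was at 0 in replicates 1 to 3. Its 2 peaks, both in replicate 4, lay 113.17 to 114.03 kb after the start of Myc (858 bp, score 157.71) and at 179.75 to 179.95 kb (203 bp, score 53.02). Every base of both lay inside H3K4me1 peaks of replicate 4, in a library where 31.0% of bases did so across the genome.

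A second H3K4me3 region lay downstream, on the Pvt1 side. It ran from 52.01 to 53.57 kb after the start of Myc (61868910 to 61870472, 1563 bp) and was called in replicates 2, 3 and 4, with none in replicate 1. It was not formed with equal numbers of best-scored H3K4me3 peaks, where the Myc region alone remained. Its best score was 247.75, 536.57 and 168.75 in those replicates, at the 27.6, 62.4 and 27.2 percentile of their lists. Its score was below that of the Myc promoter in each of these 3 libraries. In length it was ordinary, with 9578 of the 14426 H3K4me3 regions longer. No mm9 annotation was used to place it against the start of Pvt1.

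H3K27ac accompanied it in replicates 1, 3 and 4, with best scores of 65.00, 509.60 and 265.90 (the 41.6, 69.6 and 58.6 percentile), and was not called in replicate 2. H3K4me1 was not called there in any library. H3K79me2 set in within or after this region and ran downstream. It covered 94.4% of the region in replicate 1, 2.43% in replicate 2, 0% in replicate 3 and 0.640% in replicate 4, and the peak that began at 52.10 to 54.12 kb was the strongest H3K79me2 peak of the locus in all 4 libraries. The score of that peak was 483.22, 519.29, 547.25 and 749.87 in replicates 1 to 4, at the 79.4, 74.1, 74.9 and 84.7 percentile of its list. These are above the H3K79me2 scores at Myc in every library, while H3K4me3 scored higher at Myc in the 3 libraries that had both.

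H3K79me2 was called in stretches from there to 187.61 kb after the start of Myc. Bases covered in at least 2 libraries formed 16 H3K79me2 regions in the locus, 53413 bp in total. The longest began at 53.54 kb and ended at 66.81 kb, and the next at 122.55 to 132.52 kb. No peak lay between 4.95 and 52.10 kb in any of the 4 libraries, nor beyond 187.61 kb. Downstream of Myc, H3K79me2 covered 14.5%, 15.4%, 7.36% and 16.5% in replicates 1 to 4 (13.4% ± 4.14, SD, n = 4). The mean was 8.55% with peaks of score 100 or more and 0% with equal numbers of best-scored peaks. Replicate 3 was the lowest and the other 3 lay between 14.5% and 16.5%, so the values did not separate by the word in the list name. H3K27me3 had no peak there in any library.

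All enhancer-like regions lay downstream of Myc. They were built from bases with H3K4me1 or H3K27ac in at least 2 of 4 libraries, sharing no base with an H3K4me3 region. There were 18, between 13.50 and 276.31 kb after the start of Myc. Of 8243 tiles as long as the locus, 4.05% held 18 or more, the median tile held 1 and the highest 35. Asking for at least 3 libraries left 10, and leaving out all libraries of replicate 4 left 11.

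The regions were built from H3K4me1 or H3K27ac, so their presence is no finding. H3K4me1 was found in any library at 17 of 18 and H3K27ac at 16 of 18, against 89.5% and 81.6% of enhancer-like regions across the genome. H3K27ac was called in at least 3 of 4 libraries at 5 of 18 (27.8%), near the 31.5% of the genome, and H3K4me1 at 8 of 18 (44.4%), near 43.3%. H3K79me2 touched 7 of 18 in any library (38.9%, against 45.0% in the genome) and 2 of 18 in at least 3 of 4 libraries (11.1%, against 33.8%). H3K27me3 and H3K4me3 touched none of the 18, against 3.81% and 5.76% in the genome, and H3K9me3 touched 2, against 6.67%.

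The longest enhancer-like region lay 216.31 to 225.32 kb after the start of Myc (62033210 to 62042218, 9009 bp), and 1168 of 32015 such regions in the genome were longer. Its H3K27ac was 1 unbroken peak in the RAS-named lists, with a score of 848.57 in replicate 3 and 2018.07 in replicate 4. That was the highest-scored H3K27ac peak of the locus in replicate 4, above the Myc promoter. Replicate 1 had 2 short peaks there with a best score of 75.63, and replicate 2 had none. H3K4me1 was called in all 4 libraries, with best scores of 52.90, 65.59, 126.78 and 1099.24 in replicates 1 to 4. Those of replicates 1 and 2 were low in their lists, at the 13.6 and 41.3 percentile, and those of replicates 3 and 4 stood at the 72.9 and 99.3 percentile. The region lay beyond the last H3K79me2 peak.

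A second long region spanned 109.83 to 114.21 kb (61926732 to 61931108, 4377 bp) and was the only other one with H3K4me1 in 4 of 4 libraries, so 2 of 18 in all (11.1%, against 21.3% in the genome). The best H3K4me1 score there was 65.74, 97.19, 159.51 and 879.22 in replicates 1 to 4, at the 45.98, 69.9, 80.5 and 98.9 percentile. H3K27ac was called in the RAS-named lists, at 342.52 in replicate 3 and 1737.49 in replicate 4 (the 59.99 and 93.6 percentile), and in neither MLL-named list. The larger of the 2 H3K9me3 peaks of replicate 4 lay in this region.

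The region at 179.27 to 182.60 kb (61996167 to 61999501, 3335 bp) came next in length. Its H3K27ac scores were 596.66 and 1411.64 in replicates 3 and 4 (the 73.3 and 91.3 percentile), with no call in replicates 1 and 2. H3K4me1 was called in replicates 1, 2 and 4 with best scores of 62.61, 70.17 and 522.63 (the 40.9, 47.4 and 96.7 percentile), and not in replicate 3. Here the MLL-named lists held H3K4me1 without H3K27ac, and 1 RAS-named list held H3K27ac without H3K4me1.

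Nearest to the second H3K4me3 region was an enhancer-like region at 57.68 to 59.15 kb (61874580 to 61876052, 1473 bp). It was the only one with H3K27ac in 4 of 4 libraries, against 9.32% of such regions in the genome. The best scores were 61.63, 54.60, 126.66 and 158.76 in replicates 1 to 4, at the 36.1, 16.4, 33.3 and 44.3 percentile of their lists, and H3K79me2 covered part of it in 4 of 4 libraries. H3K4me1 was called there in replicates 1, 3 and 4. It was the one downstream H3K27ac region that H3K27ac replicate 2 shared, in a library whose bases fell mostly inside H3K79me2 peaks.

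The region at 93.06 to 95.33 kb (61909955 to 61912228) had H3K27ac in replicates 1, 3 and 4 (best scores 55.16, 189.40 and 371.90, at the 21.2, 44.8 and 66.7 percentile) and H3K4me1 in replicates 1, 2 and 4. The region at 119.90 to 122.39 kb (61936803 to 61939290) had H3K27ac and H3K4me1 in replicates 1, 3 and 4. At 133.32 to 135.06 kb and at 143.37 to 145.16 kb, H3K27ac was called in replicates 3 and 4 and H3K4me1 in replicates 2, 3 and 4. The region at 148.81 to 150.54 kb had H3K27ac in replicates 1, 3 and 4 and H3K4me1 in replicate 1 alone. With the 4 described before, these are the 9 regions called in at least 3 of 4 libraries of some mark. The other 9 measured 10 to 1701 bp and were called in at most 2 libraries of either H3K4me1 or H3K27ac.

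**Figure D3:**
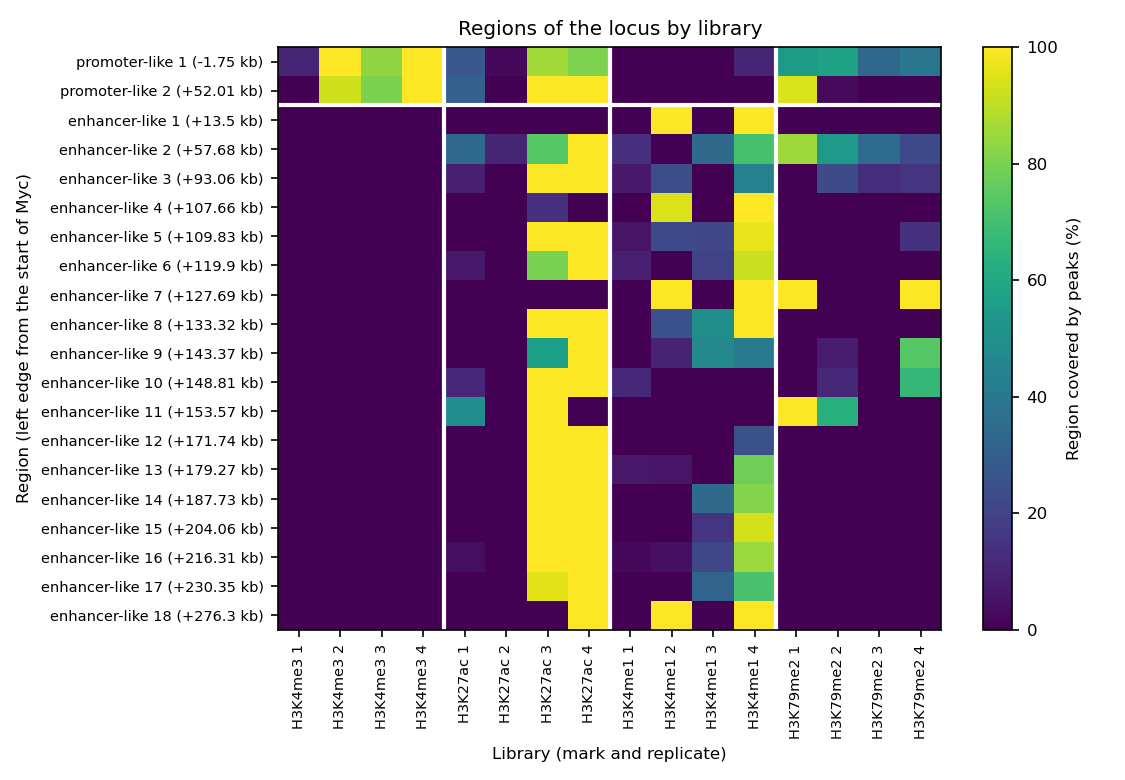
Share of each H3K4me3 (promoter-like) and enhancer-like region covered by peaks, in percent, for the 4 libraries of H3K4me3, H3K27ac, H3K4me1 and H3K79me2, with regions in order of distance from Myc. H3K27ac replicates 3 and 4 fill most rows while replicate 2 is nearly empty, and H3K79me2 is empty beyond the region at +153.57 kb.

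H3K27ac downstream of Myc differed widely between lists. It covered 1.06%, 0.145%, 15.0% and 29.5% of the downstream part (61822001 to 62100000) in replicates 1 to 4 (11.4% ± 13.8, SD, n = 4). The RAS-named lists were both above the MLL-named lists. The whole lists differ in the same direction, covering 0.757% and 0.838% of the genome spanned by peaks in replicates 1 and 2 and 4.38% and 4.29% in replicates 3 and 4. Divided by those shares, the downstream part was covered 1.41, 0.173, 3.43 and 6.87 times as densely as the list as a whole, so the order was kept but the gap between replicates 1 and 3 shrank. At the promoter window the same ratio was 70.04, 0, 22.9 and 23.3. Replicates 3 and 4 covered 100% of that window, so their ratios could be no higher and the order of the lists there cannot be read. Downstream, the mean covered share over libraries was 5.40% without replicate 4 and 15.2% without replicate 2.

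By region, 8 of the 16 H3K27ac regions of the locus (bases in at least 2 of 4 libraries) were called in both RAS-named lists and neither MLL-named list, and 0 in the opposite pattern. Across the genome 29.2% of H3K27ac regions had the first pattern and 0.858% the second. With the same number of best-scored peaks taken from every H3K27ac list, it was 10 of 15 against 40.7% across the genome. The share over 16 neighbouring regions, which share their libraries, was not tested against the genome. H3K27ac was called in 4 of 4 libraries at 2 of the 16 (12.5%, against 24.5% across the genome). H3K27ac replicate 2 was called only at these 2, so the pattern rests on the few calls of replicate 1 among the MLL-named lists.

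H3K4me1 covered 0.578%, 1.35%, 2.45% and 15.0% of the downstream part in replicates 1 to 4 (4.86% ± 6.84, SD, n = 4). Replicate 4 was far above the other 3. Relative to the whole list the ratios were 0.985, 1.43, 1.38 and 7.15, so the RAS-named replicate 3 lay between the MLL-named lists and these ratios did not separate by list name. Of 17 H3K4me1 regions in the locus, 5 (29.4%) were called in both RAS-named lists and neither MLL-named list, against 23.8% across the genome, and none in the opposite pattern, against 3.87%. With peaks of score 100 or more, the first pattern held for 4 of 4 regions, against 36.2% across the genome. The 4 of 4 was fixed by the cut, as the highest H3K4me1 scores of the locus in the MLL-named lists were 66.99 and 97.19. With equal numbers of best-scored peaks the first pattern held for 3 of 10 (30.0%), against 19.2%. In 2 of 17 it was called in 4 of 4 libraries (11.8%, against 31.2%). H3K4me1 exceeded H3K4me3 downstream by 4.45 points, in 16 of 16 pairs (exact permutation p 0.0286, adjusted 0.0343). The separation was narrow, as the lowest H3K4me1 library covered 1608 bp there and the highest H3K4me3 library 1563 bp. The whole lists covered 0.588% to 2.10% of the genome for H3K4me1 and 0.120% to 1.25% for H3K4me3. Without H3K4me1 replicate 4 the difference was 1.05 points. Without any 1 H3K4me3 library the difference stayed at 4.32 to 4.51 points but the call was lost (adjusted exact p 0.309 to 0.343). The call was also lost with peaks of score 100 or more (0.629) and with equal numbers of best-scored peaks (1).

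For H3K79me2, 2 of 16 regions were called in both MLL-named lists and neither RAS-named list (12.5%, against 8.01% across the genome) and 0 in the opposite pattern (5.12% across the genome). With equal numbers of best-scored peaks, 4 of 12 were called in the MLL-named lists alone (33.3%, against 16.7% across the genome). In 7 of 16 the mark was called in all 4 libraries (43.8%, against 54.0%).

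**Figure D4:**
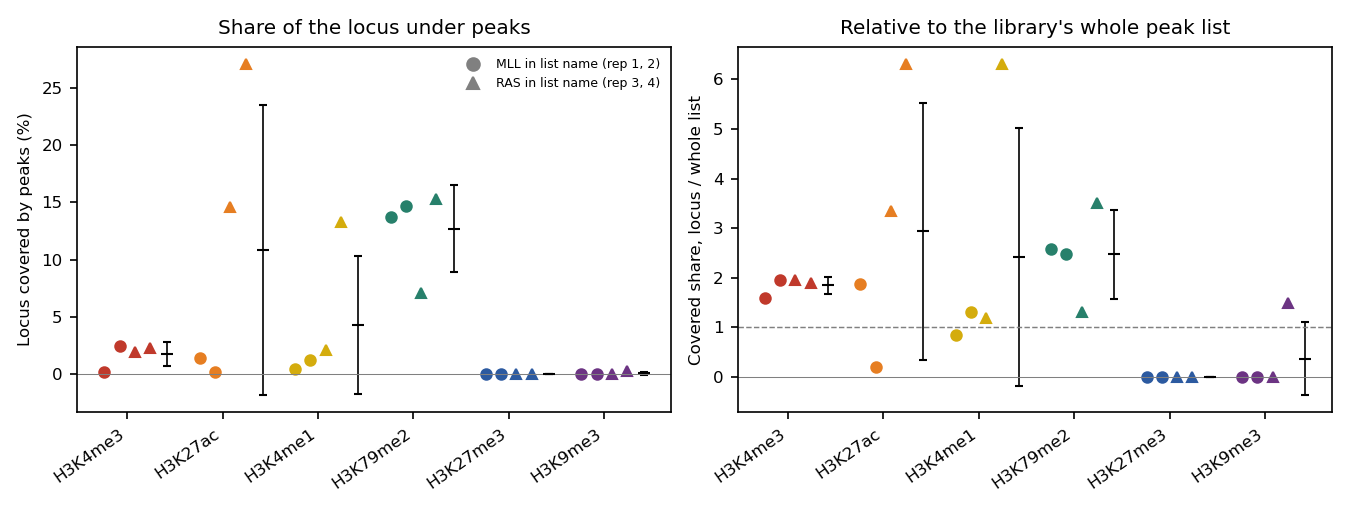
Left, percent of the 320 kb locus covered by peaks in each library; right, that share divided by the share of the genome covered by the same list (dashed line at 1). Circles are replicates 1 and 2, triangles replicates 3 and 4, and black bars the mean ± SD of 4 libraries. H3K27ac and H3K4me1 replicate 4 reach 6.32 and 6.30 on the right, while the H3K4me3 libraries stay between 1.59 and 1.96.

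The locus was also set against tiles of the same length, of which 43.5% to 58.4% had no peak in a given library of the active marks. The share of the 8243 tiles with a lower covered share was 83.1%, 65.8%, 90.1% and 97.8% for H3K27ac replicates 1 to 4, and 73.5%, 77.4%, 75.2% and 96.8% for H3K4me1. For H3K79me2 it was 84.5%, 83.9%, 74.5% and 89.9%, and for H3K4me3 it lay between 78.9% and 81.5%. In H3K27ac replicate 2 and H3K4me1 replicate 1 the locus was covered less than the mean tile, at 0.168% against 0.839% and 0.502% against 0.588%. The order of mean covered shares over the locus was H3K79me2 (12.7% ± 3.78), H3K27ac (10.8% ± 12.7), H3K4me1 (4.28% ± 6.03), H3K4me3 (1.74% ± 1.05), H3K9me3 (0.0829% ± 0.166) and H3K27me3 (0%), each as mean ± SD over 4 libraries. By medians, H3K4me3 (2.16%) stood above H3K4me1 (1.68%), whose mean rests on replicate 4. The differences between neighbours from H3K79me2 to H3K4me3 were smaller than the SD of at least 1 of the marks compared.

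H3K4me1 downstream of Myc lay mostly outside H3K79me2. The latter covered only 14.5%, 15.4%, 7.36% and 16.5% of that part in replicates 1 to 4, so most positions there lie outside it. Of H3K4me1 bases downstream of Myc, 12.2%, 11.2%, 1.06% and 9.46% lay inside H3K79me2 peaks of the same replicate number in replicates 1 to 4. Over the whole lists the shares were 62.3%, 60.5%, 55.2% and 46.2%. The share was lower here in 4 of 4 libraries, MLL-named and RAS-named alike. For H3K27ac it was lower in replicates 3 and 4, at 3.00% and 18.3% against 31.1% and 28.2%, but not in replicates 1 and 2, at 54.6% and 100% against 46.5% and 82.2%. The values of replicates 1 and 2 rest on 2.96 and 0.404 kb of H3K27ac. Peaks of 1 locus are not independent of each other, so these shares are given as a description.

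**Figure D5:**
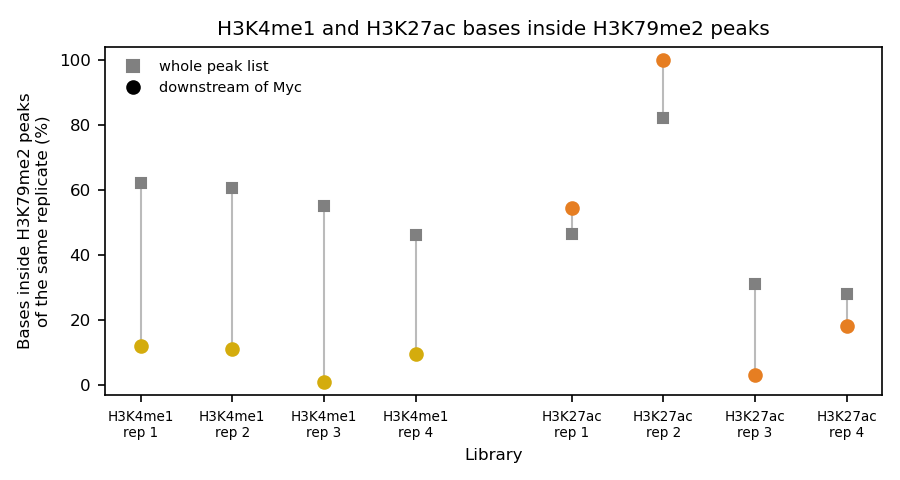
Percent of H3K4me1 and H3K27ac bases inside H3K79me2 peaks of the same replicate number, downstream of Myc (coloured circles) and over the whole list (grey squares), by library. All 4 H3K4me1 circles lie between 1.06% and 12.2%, below their squares, while the H3K27ac circles lie on either side.

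The promoter windows most like that of Myc were sought among 14424 windows of 2 kb around the centres of H3K4me3 regions outside the locus, by the mean absolute difference in covered share over the 24 libraries. The closest were on chromosome 8 from 11556048 to 11558047, chromosome 6 from 66985759 to 66987758 and chromosome 11 from 23669754 to 23671753, with mean differences of 0.979, 1.09 and 1.10 percentage points against a median of 16.2. Each matched Myc in the presence or absence of a peak in 22 of 24 libraries, while 18 other windows with larger differences in share matched it in all 24, and each had no H3K27ac in replicate 2 and a low H3K4me3 share in replicate 1 (16.05%, 11.7% and 13.4%). The low values of both libraries at Myc were shared with these windows, which were chosen for their likeness to it. They are given by position, as no mm9 annotation was used.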

How the data were processed

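ChIP-seq of 6 histone marks with 4 libraries each was available as 24 peak lists, while 4 samples of input DNA were left out. Per the submitters' processing notes, CASAVA 1.7, Bowtie, MACS and deepTools were used, with mm9 as the build; their settings are not given in the sources used here. Deposited peaks are numbered with a MACS prefix, and peaks were called per library. The score of each peak is the authors' own, with a floor of 50 in every list. Scores are printed per library, most with their percentile within the list, and raw scores are not on 1 scale across lists.

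Groups and replicate numbers came from sample titles. Positions of the locus and of Myc came with the definition of the locus, and positions are counted from 1. The members, regions and tests were chosen with earlier results of these data known. Covered shares were computed in Python 3.11.15 (numpy 2.4.6, pandas 2.3.3), with overlaps of at least 1 bp, and the interval steps were tested on simulated data. The genome was taken as the span up to the last peak of each chromosome (2641 Mb). Exact two-sided permutation tests compared 4 libraries with 4, adjusted over 6 tests by the Benjamini-Hochberg method. Labels do not say that replicates are separate animals, so p-values measure only the spread between these libraries, which may be technical. Each group of 4 libraries also held both MLL-named and RAS-named lists. Means, SDs and tests therefore pool the list names, and the 4 libraries are not shown to be replicates of a single condition.

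Regions named were every H3K4me3 region and the enhancer-like regions called in at least 3 of 4 libraries of some mark, plus the 3 windows most like the Myc promoter. A planned list of 20 genes of the Myc pathway was not examined, because no mm9 annotation was used. The alternatives were peaks with a score of 100 or more, equal numbers of best-scored peaks, merged peaks, peaks of 500 bp, tiles, a wider promoter window, a replicate block, other rules for regions, and leaving out libraries.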

Additional observations from a re-analysis of the deposited data

Results flagged for a closer look

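Groups of 4 libraries were examined for a value far from the other 3, over each segment of the locus and each mark. A distant value was found in 7 of 19 groups, and several of the 7 share a library. Chance gives about 1 in 20, but not where the other 3 values tie, as in 3 of the 7 (at 0% or at 100%), since any other value then counts as distant. H3K4me3 replicate 1 covered 13.6% of the Myc promoter window, against 100% in the other 3, and 0% of the downstream part, against 0.505% to 0.562%. H3K79me2 replicate 2 covered 12.0% of the promoter window, against 0% to 1.95%. H3K4me1 replicate 4 covered 15.0% of the downstream part, against 0.578% to 2.45%, and 13.3% of the whole locus, against 0.502% to 2.12%. H3K9me3 replicate 4 covered 0.382% of the downstream part and 0.332% of the whole locus, where the other H3K9me3 libraries had no peak.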

How the results depend on the processing

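Of the 5 differences that passed the test, 4 were set against H3K27me3 at 0, so their calls were fixed by a peak in 4 of 4 libraries. All 5 lost the call when peaks were limited to a score of 100 or more: 75.0 percentage points for H3K4me3 at the promoter, 40.9 for H3K79me2 in the gene body, and downstream 3.09 for H3K4me1, 9.29 for H3K27ac and 8.55 for H3K79me2 (adjusted exact p 0.171 to 0.629). With the 5224 best-scored peaks of every list they were 78.4, 0, 1.09, 1.94 and 0 (adjusted exact p 0.171 to 1). With the replicate number as a block (exact sign-flip test, which cannot pass with 4 pairs) they stayed at 78.4, 79.1, 4.45, 11.4 and 13.4, with an adjusted p of 0.15. Correlations of same-numbered deviations ran from -0.111 to 0.826, with 5 of 20 over 0.1 and 6 of 20 best with their own number. H3K27ac and H3K4me1 were at 0.826, 0.656 and 0.803 in replicates 1, 2 and 4 and at -0.0669 in replicate 3. Not every pair was over 0.1, so the number was not taken as a pairing, though these marks moved together in 3 of 4.

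Leaving out 1 library gave 71.2 to 100 at the promoter, 73.3 to 86.6 in the gene body, and downstream 1.05 to 5.88 for H3K4me1, 5.40 to 15.2 for H3K27ac and 12.4 to 15.5 for H3K79me2. Leaving out any 1 H3K27me3 library kept the differences but ended all 4 calls set against it (adjusted exact p 0.206 for H3K27ac downstream and 0.0857 for the other 3). All H3K27me3 libraries were at 0, so this changed only the size of the groups tested. Leaving out any 1 H3K4me3 library ended the call of H3K4me1 downstream, though H3K4me1 stayed higher in every pair of libraries left. Peaks set to 500 bp kept every call, at 8.16, 18.3, 4.09, 2.83 and 3.55 points. Merged peaks, 1 kb tiles and a promoter window of 2.5 kb also kept the calls they bear on. The upstream difference passed under no setting. Enhancer-like regions numbered 18, but 10 in at least 3 libraries, 11 with a score of 100 or more, 24 in at least 1 library and 25 with no gap closed. Without all libraries of 1 replicate number they numbered 11 to 17, with the 11 without replicate 4, and 18 without H3K27ac replicate 2 and H3K4me3 replicate 1. The 8 of 16 H3K27ac regions of the RAS-named lists alone (29.2% across the genome) became 11 of 12 with a score of 100 or more (52.5%) and 10 of 15 with equal numbers of best-scored peaks (40.7%). These last 3 settings were chosen after seeing the data. In the MLL-named H3K27ac lists only the Myc promoter peak of replicate 1 (144.86) reached 100 in the locus. The highest of replicate 2 was 66.12. The score cut therefore fixed the 11 of 12, which adds nothing on the list names. The H3K4me3 regions numbered 2 in the settings tried for the region counts, and 1 with equal numbers of best-scored H3K4me3 peaks. Depth is unknown, so an uncalled mark is not shown to be absent.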
